A study of Homo sapiens with 16 samples.

Results

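The stretch described here runs from position 1 to 19700000 of chromosome 19 (build hg19), most of the chromosome's short arm. Its members are the LSD1 islands that lie wholly inside it, and they were taken by position alone, from 8 lists of islands, 1 per immunoprecipitated library. There were 2675 members among 85586 islands in all. An island is a run of 200 bp windows with more immunoprecipitated reads than its Input background. Each island comes with a false discovery rate (FDR), the authors' adjusted p-value, and no island crossed the end of the stretch.

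LSD1 (KDM1A) is a demethylase that takes methyl groups off lysines of histone H3, mostly within the CoREST and NuRD complexes. It is found at promoters and enhancers of active as well as silenced genes. The long non-coding RNA HOTAIR binds LSD1 and also PRC2, the complex that methylates histone H3 at silenced genes. Chromosome 19 is known as the most gene-dense human chromosome. Its short arm carries, for example, DNMT1, which maintains DNA methylation, SMARCA4, the motor subunit of a SWI/SNF chromatin remodeller, and STK11, a kinase that senses the cell's energy state.

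LSD1 was mapped by chromatin immunoprecipitation and sequencing in 4 HEK-based lines, made from human embryonic kidney cells, with 2 separately grown cultures per line and an Input for each culture. From background knowledge, the control line is Epi-CTR, and Epi-HOT expresses full-length HOTAIR. Epi-HOTΔP and Epi-HOTΔL, which the labels write with <delta> in place of Δ, express HOTAIR without its PRC2-interacting and its LSD1-interacting part. The labels give only the names of the lines and, for all of them, the same culture medium, no treatment and 1 lot of LSD1 antibody. They do not say whether a line is a single clone. Line identity could not be checked against marker genes, since island lists hold no expression, and the label "gene-dense" was not measured, since the reference tables used here are of a later build. No gene is therefore assigned to an island, and no sequence is printed.

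Lists ranged from 1116 to 20592 islands, and they hold no read numbers, which leaves the sequencing depth unknown. A place without an island can therefore be a place with fewer reads. Epi-HOT replicate 2 and Epi-HOTΔP replicate 1 stood apart: they had the shortest lists, and the short arm was nearly empty in both. Whether either of them failed, differs in yield or was exchanged was not tested and cannot be told from the lists. Results that rest on them are given with and without them.

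LSD1 islands were packed densely on the short arm in 6 of the 8 libraries and were all but missing from the other 2. Epi-CTR replicates 1 and 2 had 616 and 598 members, Epi-HOTΔL replicates 1 and 2 had 557 and 408, Epi-HOTΔP replicate 2 had 300 and Epi-HOT replicate 1 had 193. Epi-HOT replicate 2 had 3 members and Epi-HOTΔP replicate 1 had 0. Replicates were close in Epi-CTR (607.0 ± 12.7 members, SD, n = 2) and less so in Epi-HOTΔL (482.5 ± 105.4, SD, n = 2). In Epi-HOT (98.0 ± 134.4, SD, n = 2) and Epi-HOTΔP (150.0 ± 212.1, SD, n = 2) the spread between replicates was larger than the mean.

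Density, counted from the first island at position 271001, shows the same split. The short arm held 31.7 and 30.8 islands per Mb in the Epi-CTR replicates, against 7.21 and 5.17 in all other autosomal sequence, 4.40 and 5.95 times as many. Epi-HOTΔL replicates 1 and 2 had 28.7 and 21.0 islands per Mb, 4.90 and 3.80 times the level elsewhere. Epi-HOTΔP replicate 2 had 15.4 (5.49 times) and Epi-HOT replicate 1 had 9.93 (4.35 times). These 6 ratios lie close together although the lists differ in length. Epi-HOT replicate 2 went the other way, with 0.154 islands per Mb on the short arm and 0.641 elsewhere. Chromosome 19 beyond the stretch was also sparse in that library and in Epi-HOTΔP replicate 1, at 0.102 islands per Mb in each.

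**Figure D1:**
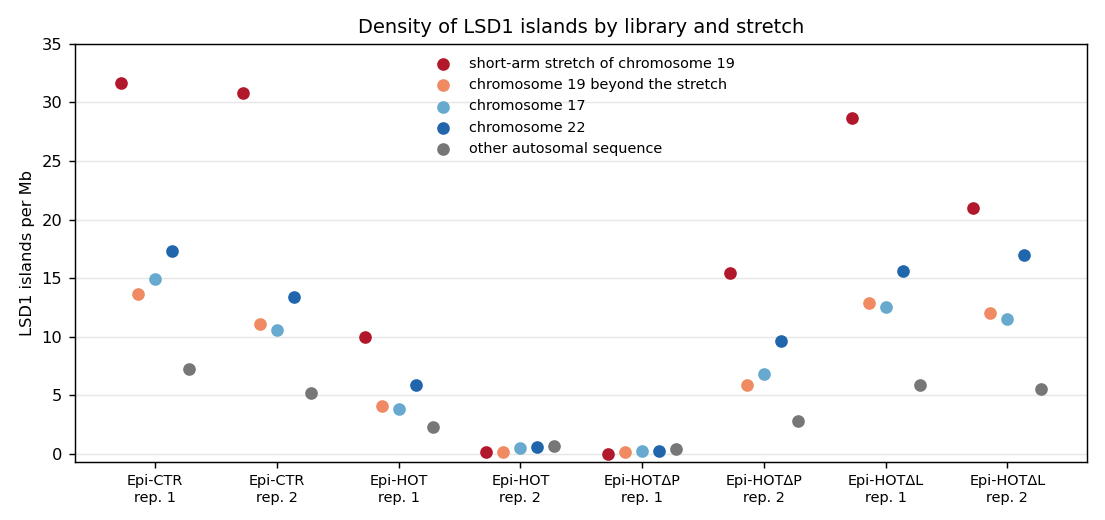
LSD1 islands per Mb (vertical axis) in each of the 8 libraries (horizontal axis), for the short-arm stretch and 4 other parts of the genome, 1 point per library and part. The short arm is the highest point in 6 libraries, at 9.93 to 31.7 islands per Mb, and lies below the other autosomal sequence in Epi-HOT replicate 2 and Epi-HOTΔP replicate 1.

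Over all 8 libraries the mean log2 ratio of the short arm to other autosomal sequence was 0.965, with 0.5 islands added to each count, and it was above 0 in 6 of 8 libraries (exact two-sided sign-flip permutation p = 0.242, adjusted 0.323 over 4 measures). The difference therefore did not exceed the spread between libraries. Epi-HOTΔP replicate 1 had 0 members, so its log2 ratio, -3.97, depends on the 0.5 added. The mean and the p-value depend on that choice too. Without Epi-HOT replicate 2 and Epi-HOTΔP replicate 1 the mean was 2.25; since these were left out for being sparse on this chromosome, that value is a description. By its share of the autosomal span, 0.698%, the stretch would hold 12.4 of the 1776 autosomal islands of Epi-HOT replicate 2 and 7.77 of the 1114 of Epi-HOTΔP replicate 1. The observed shares were 0.169% (exact 95% binomial interval 0.0348 to 0.493) and 0% (exact 95% binomial interval 0 to 0.331; 3 islands would be 0.269%). In the other 6 libraries 2.60% to 4.01% of autosomal islands lay there. These intervals cover counting error only.

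Chromosomes 17 and 22, which are also rich in genes, were less dense. Epi-CTR replicate 1 had 14.9 and 17.3 islands per Mb on them and Epi-HOTΔL replicate 2 had 11.5 and 17. The short arm was 1.60 to 2.70 times as dense as both chromosomes together in 6 libraries and 0.318 times in Epi-HOT replicate 2. The mean log2 ratio over 8 libraries was 0.227 (exact sign-flip permutation p = 0.727, adjusted 0.727), and 1.07 without the 2 sparse libraries. The first mean includes -3.16 for Epi-HOTΔP replicate 1, a value that again depends on the islands added to its count of 0. Counted in covered bases, with 200 bp added to each sum, the mean log2 ratio over the 8 libraries was -0.213. Epi-HOTΔP replicate 1 covered 0 bases of the short arm, so its value is set by the added length. In each of the 6 libraries with a dense short arm, that arm was more covered (14.8% to 58.1%) than chromosome 17 (6.30% to 20.3%) or 22 (8.59% to 29.8%). Epi-HOT replicate 2 went the other way, with 0.0803% against 0.403% and 0.405%. In the dense libraries chromosome 19 beyond the stretch was close to chromosome 17: 13.6 and 11.1 islands per Mb in the Epi-CTR replicates and 12.9 and 12 in the Epi-HOTΔL replicates. In Epi-HOT replicate 2, chromosomes 17 and 22 held 0.456 and 0.557 islands per Mb, against 0.641 in all other autosomal sequence. In Epi-HOTΔP replicate 1 they held 0.234 and 0.205, against 0.403. Low density in these 2 libraries was thus not particular to the short arm.

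In the libraries with a dense short arm, islands also filled more of it than of the rest of the genome. They covered 15.4% and 21.5% of it in the Epi-CTR replicates, against 3.16% and 2.74% of other autosomal sequence. Epi-HOTΔP replicate 2 was similar, with 14.8% against 2.73%, as was Epi-HOTΔL replicate 1, with 19.8% against 2.65%. Epi-HOT replicate 1 covered 32.8% with only 193 islands (2.79% elsewhere), and Epi-HOTΔL replicate 2 covered 58.1% (6.90% elsewhere). Epi-HOT replicate 1 thus had the steepest contrast, 11.8 times, beside 4.89 to 8.42 times in the other 5. Epi-HOT replicate 2 covered 0.0803% of the short arm, 15.6 kb, and 0.564% elsewhere. In the dense libraries, chromosome 17, chromosome 22 and chromosome 19 beyond the stretch lay between the short arm and other autosomal sequence. Epi-HOTΔL replicate 2, for example, covered 20.3%, 29.8% and 22.2% of them.

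The extra coverage in Epi-HOT replicate 1 and Epi-HOTΔL replicate 2 came with wide islands. The median member was 22.6 kb in Epi-HOT replicate 1 and 18.6 kb in Epi-HOTΔL replicate 2, 3.32 and 2.51 times the median elsewhere in the same list. In Epi-CTR replicates 1 and 2 the medians were 4.20 and 5.60 kb, in Epi-HOTΔL replicate 1 5.00 kb and in Epi-HOTΔP replicate 2 8.80 kb, 1.02 to 1.32 times the median elsewhere. So replicates of Epi-HOTΔL differed in width more than that line's replicate 1 differed from Epi-CTR. The widest members measured 153.6 kb in Epi-HOT replicate 1 (positions 880001 to 1033600) and 174.0 kb in Epi-HOTΔL replicate 2 (1984201 to 2158200), beside 26.4 to 43.0 kb in the other 4.

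In 6 of 6 libraries with at least 5 members, the median island was wider on the short arm than in all other autosomal sequence. The mean log2 ratio of medians was 0.664 (exact sign-flip permutation p = 0.0312, the smallest that 64 sign patterns allow; adjusted 0.125 over 4 measures, which misses 0.05). In Epi-HOTΔP replicate 2 the ratio was only 0.03 on the log2 scale. Without Epi-HOT replicate 1 the mean was 0.450. Against the rest of chromosome 19 it was 0.326 (exact permutation p = 0.125). In Epi-CTR replicate 1 the median was 4.20 kb on the short arm, on the rest of chromosome 19 and on chromosome 22. In Epi-HOTΔP replicate 2 it was 8.80 kb on both parts of chromosome 19 and 9.20 kb on chromosome 22. In the other dense libraries the short arm had a wider median than the rest of chromosome 19, chromosome 17 or chromosome 22.

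**Figure D2:**
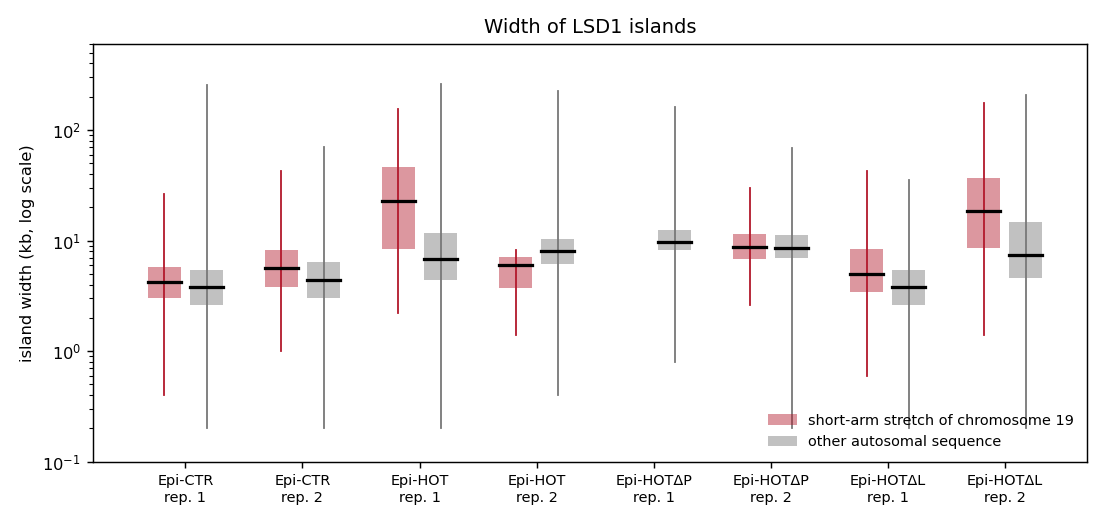
Width of LSD1 islands in kb (vertical axis, log scale) by library, on the short-arm stretch and in other autosomal sequence; boxes span the quartiles, black bars are medians and lines reach the narrowest and the widest island. Medians on the stretch are 22.6 and 18.6 kb in Epi-HOT replicate 1 and Epi-HOTΔL replicate 2; Epi-HOTΔP replicate 1 has no member and Epi-HOT replicate 2 only 3.

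Islands of at least 20 kb made up 53.4% of the members in Epi-HOT replicate 1 and 47.8% in Epi-HOTΔL replicate 2, against 13.6% and 17% of their islands elsewhere. In both Epi-CTR libraries, Epi-HOTΔP replicate 2 and Epi-HOTΔL replicate 1 they made up 0.325% to 4.13%. There were 44 and 61 members of at least 50 kb in Epi-HOT replicate 1 and Epi-HOTΔL replicate 2 and 0 in the other 6 libraries. They made up 22.8% and 15.0% of the members, against 4.06% and 2.97% of islands elsewhere. They held 56.5% and 43.1% of the covered bases, against 27.2% and 16.5% elsewhere.

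The same places were mostly occupied, in smaller pieces, in the other libraries with a dense short arm. Within the 44 wide islands of Epi-HOT replicate 1, Epi-CTR replicate 1 had a median of 4.50 islands, Epi-CTR replicate 2 4.00, Epi-HOTΔL replicate 1 3.00 and Epi-HOTΔP replicate 2 2.00. These pieces covered medians of 26.4% to 42.7% of a wide island. Between 1 and 6 of the 44 (2.27% to 13.6%) had no island in a given one of these 4 libraries. For the wide islands of Epi-HOT replicate 1 elsewhere these shares were 3.91% to 10.2%, so the ranges overlap. Epi-HOTΔL replicate 2 filled the 44 almost whole, with a median of 97.6% (94.9% elsewhere). The sparse libraries did not hold them: 43 of the 44 (97.7%) had no island in Epi-HOT replicate 2, and all 44 had none in Epi-HOTΔP replicate 1. Elsewhere, 100.0% of the wide islands of Epi-HOT replicate 1 had no island in either sparse library. In the reverse lookup, the 61 wide islands of Epi-HOTΔL replicate 2 were covered to a median of 79.1% in Epi-HOT replicate 1, where 11 of them (18.0%) had no island. Elsewhere its 454 wide islands were covered to a median of 14.7% there, and 46.3% had no island. Epi-HOT replicate 1 covered 32.8% of the short arm and 2.79% elsewhere, and the part of this cover in the contrast was not tested.

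The caller joins windows across gaps of up to 1000 bp, and the smallest gap left in any list was 1200 bp. The median gap between members was 2.20 kb in Epi-HOTΔL replicate 2, where 60.0% of gaps were at most 5 kb. It was 11.2 to 13.1 kb in both Epi-CTR libraries and Epi-HOTΔL replicate 1, with 27.2% to 32.7% of gaps at most 5 kb. It was 24.2 kb in Epi-HOTΔP replicate 2 and 29.9 kb in Epi-HOT replicate 1. The number of islands in a stretch therefore depends on how many gaps were joined, which covered bases depend on less.

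Along the short arm, the islands followed 1 common profile. In bins of 1 Mb the end of the chromosome was the most covered part, and the bin from 1 to 2 Mb was the highest in 5 libraries: 38.3% covered in Epi-CTR replicate 2, 28.6% in Epi-HOTΔP replicate 2, 43.8% and 93.1% in the Epi-HOTΔL replicates and 79.0% in Epi-HOT replicate 1. Epi-CTR replicate 1 peaked between 18 and 19 Mb, at 29.3%, a bin that was 23.9% to 86.3% covered in the other 5. The lowest cover lay between 9 and 10 Mb, with 0.740% to 11.5% in the 6 libraries, or between 15 and 16 Mb, with 1.60% to 23.8%. A sharp step followed the first of these, since the bin from 10 to 11 Mb was 20.6% to 73.4% covered.

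**Figure D3:**
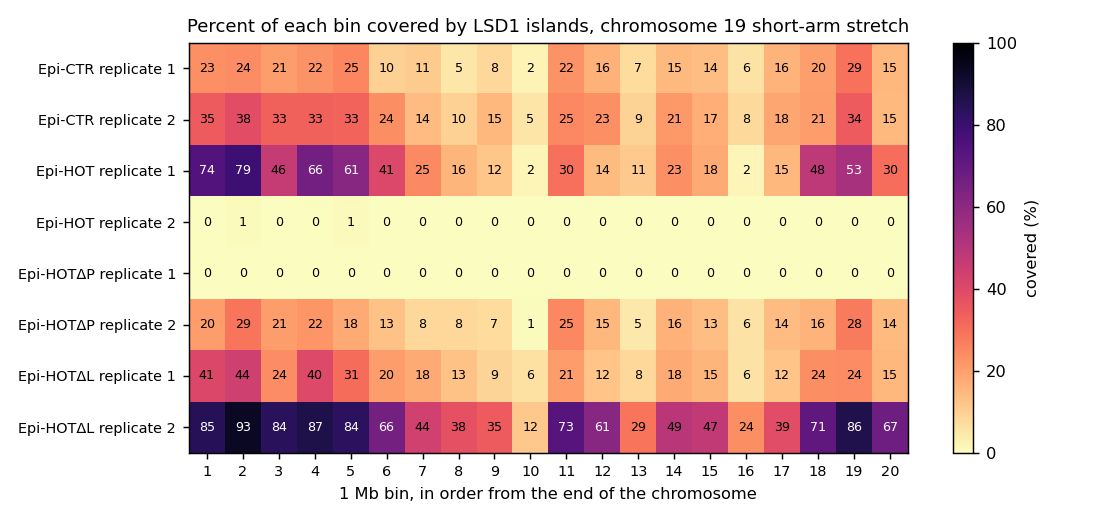
Percent of each 1 Mb bin of the short-arm stretch covered by LSD1 islands (colour and printed value), by library (rows) and bin in order from the end of the chromosome (columns). In 6 libraries bins 1 to 5 and 19 are darker than bins 10 and 16 of the same row. The rows of Epi-HOT replicate 2 and Epi-HOTΔP replicate 1 are empty or nearly so.

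Between any 2 of these 6 libraries the 20 bins correlated with a Pearson r of 0.779 to 0.972 and a Spearman rho of 0.827 to 0.976, over 15 pairs; bins of a library share its depth and each other's base composition, so this describes the profile only. Epi-HOT replicate 1 and Epi-HOTΔL replicate 1, from different lines, had the highest r. The first 5 Mb held 45.3 and 45.9 islands per Mb in the Epi-CTR replicates and 48.0 in Epi-HOTΔL replicate 1, and the next 5 Mb 17.4, 22.8 and 22.6. In Epi-HOT replicate 1 the first 5 Mb were 64.9% covered, with a median width of 34.9 kb, against 18.9% and 10.6 kb in the next 5. Cover fell in the same way in Epi-HOTΔL replicate 2, from 86.5% to 38.6%.

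Seen from the whole genome, the short arm supplied many of the most covered places. Of 2890 autosomal bins of 1 Mb, 20 are on the stretch, and 10 to 15 of them were among the 100 most covered in each of the 6 libraries. The first place went to a short-arm bin in Epi-CTR replicate 2, Epi-HOT replicate 1 and both Epi-HOTΔL libraries. None of the 20 was among the top 100 in Epi-HOT replicate 2 or Epi-HOTΔP replicate 1. Their islands touched 3 and 0 of the 20 bins.

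Members also ranked high by FDR, which is used here only to order islands within a list. They made up 5.00% to 20.0% of the 100 best islands and 5.00% to 9.0% of the 1000 best in the 6 libraries, against 2.59% to 4.00% of the whole lists. The best island of Epi-CTR replicate 2 lay at 13940601 to 13983600 (43.0 kb, FDR 1.34e-59), and the best of Epi-HOT replicate 1 was its widest member (153.6 kb, FDR 1.72e-52). The best members ranked 2 in Epi-HOTΔL replicate 2 (1035201 to 1195000, FDR 2.28e-125) and in Epi-HOTΔP replicate 2 (1250001 to 1271800, FDR 6.88e-20). They ranked 3 in Epi-HOTΔL replicate 1 (4058001 to 4069000, FDR 4.29e-16) and 7 in Epi-CTR replicate 1 (4574601 to 4587800, FDR 1.57e-56). Each of these 6 islands met an island in all 5 other libraries that had a dense short arm.

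Recurrence was measured by joining islands of all 8 libraries that share at least 1 bp into regions. The short arm gave 477 regions with a median width of 11 kb, beside 5.80 kb over all 41637 autosomal regions. Of the 477, 283 (59.3%) had an island in at least 2 libraries, where the share over all autosomal regions is 40.4%. In at least 6 libraries there were 58 (12.2%), against 1.60% of all autosomal regions. All 58 were held by the 6 libraries with a dense short arm, which share 600 regions genome-wide; 9.67% of those 600 lay on a stretch that has 1.15% of all regions. Dense and wide islands meet and join more readily, so these shares move with the covered length given above. The 6-library share also needs all 6 dense libraries: leaving out any 1 of them brought it to between 0.442% and 0.679%.

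**Figure D4:**
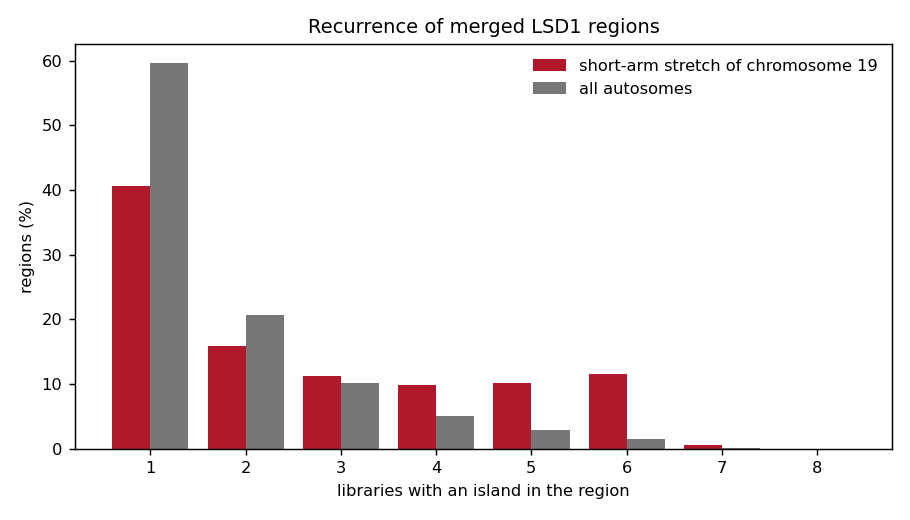
Percent of merged LSD1 regions (vertical axis) by the number of libraries with an island in the region (horizontal axis), for the 477 regions of the short-arm stretch and the 41637 of all autosomes. Regions in a single library make up 40.7% on the stretch and 59.6% over all autosomes; those in 6 libraries 11.5% and 1.54%.

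Counted in bases, which joining does not affect, 68.7% of the short arm lay in an island of at least 1 library, against 13.8% of other autosomal sequence. Bases in at least 4 libraries made up 13% of the short arm and 0.714% elsewhere. Bases in 6 libraries made up 1.84% and 0.0626%. In windows of 10 kb, 81.7% of occupied windows on the short arm were shared by at least 2 libraries, and 51.3% over all autosomes. No base was covered in all 8 libraries, since Epi-HOTΔP replicate 1 has no member.

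The regions in most libraries were wide. Regions in 6 libraries had a median width of 99.2 kb and together spanned 6.24 Mb. Those in 1 library had a median of 5.10 kb and together spanned 1.13 Mb. Only 3 regions reached 7 libraries, each through 1 of the 3 members of Epi-HOT replicate 2: 18667801 to 18669200 (1.40 kb, FDR 0.00444), 1510801 to 1516800 (6.0 kb, FDR 0.00619) and 4225801 to 4234000 (8.20 kb, FDR 0.000230). They ranked 1227, 1289 and 894 of 1778 in that list. All 3 met an island in each of the 6 other libraries with members.

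The region around the first of them, at 18356001 to 18688800, was the widest of the 3 with 332.8 kb. It was made of 23 and 13 islands in the Epi-CTR replicates, 13 in Epi-HOTΔP replicate 2, 9 and 6 in the Epi-HOTΔL replicates and 4 in Epi-HOT replicate 1. These covered 38.3% and 49.5%, 45%, 28.1% and 94.8%, and 64.1% of it. The smallest FDR there was 9.17e-34 in Epi-CTR replicate 1, 1.14e-32 in Epi-HOTΔL replicate 2 and 2.98e-16 in Epi-HOT replicate 1. The regions at 1500001 to 1627800 (127.8 kb) and 4156601 to 4320400 (163.8 kb) were nearly whole in Epi-HOTΔL replicate 2, at 98.6% and 97.2%. Epi-CTR replicates 1 and 2 covered 28.0% and 27.2% of the former and 19.9% and 39.6% of the latter.

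Next by the ranks of their islands came regions of 6 libraries. The region at 1230001 to 1306000 (76.0 kb) was a single island over 100.0% of its length in Epi-HOT replicate 1 and over 98.7% in Epi-HOTΔL replicate 2. It held 4 and 2 islands in Epi-CTR replicates 1 and 2, 4 in Epi-HOTΔP replicate 2 and 3 in Epi-HOTΔL replicate 1. Its FDRs reached 1.19e-104 in Epi-HOTΔL replicate 2 and 3.89e-47 in Epi-HOT replicate 1. The region at 13838401 to 14027400 (189.0 kb) holds the first-ranked island of Epi-CTR replicate 2; its smallest FDR was 8.97e-56 in Epi-CTR replicate 1 and 1.68e-10 in Epi-HOT replicate 1.

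The other 5 of the 10 named regions lay in the first 5 Mb, at 2433801 to 2568000, 3530801 to 3742800, 3975001 to 4125000, 4467601 to 4601800 and 4626001 to 4735400. Epi-HOTΔL replicate 2 covered 91.0% to 97.3% of each of them and Epi-HOT replicate 1 69.4% to 98.5%. Epi-CTR replicate 1 covered 14.8% to 48.4%.

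Overlap between libraries was higher on the short arm than elsewhere for every pair of the 6 dense libraries. The Jaccard index, the bases shared by both lists divided by the bases in either, was 0.293 for the Epi-CTR replicates on the short arm and 0.183 elsewhere. For the Epi-HOTΔL replicates it was 0.269 and 0.138. The highest value, 0.481, joined libraries of different lines, Epi-HOT replicate 1 and Epi-HOTΔL replicate 2, with 5.73 Mb in common, 90.0% of the first and 50.8% of the second. Epi-HOTΔL replicate 2 also took in 87.8% and 83.0% of the covered bases of Epi-CTR replicates 1 and 2, 86.8% of Epi-HOTΔP replicate 2 and 83.5% of its own replicate 1.

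The index rises with the covered share, which was larger on the short arm. The covered shares alone, with islands placed without regard to each other, would give the Epi-CTR replicates an index of 0.0987 on the short arm and 0.0149 elsewhere. For Epi-HOT replicate 1 and Epi-HOTΔL replicate 2 these values are 0.265 and 0.0203. Shared bases were 1.43 to 2.52 times what the covered shares give on the short arm and 5.37 to 10.6 times elsewhere. This ratio was higher on the short arm in 0 of the 15 pairs. It cannot exceed the inverse of the larger covered share of a pair. On the short arm that limit lay below the value elsewhere in every pair, so the outcome was fixed by the cover. Neither the higher index nor the lower ratio shows whether positions agreed more or less closely there.

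**Figure D5:**
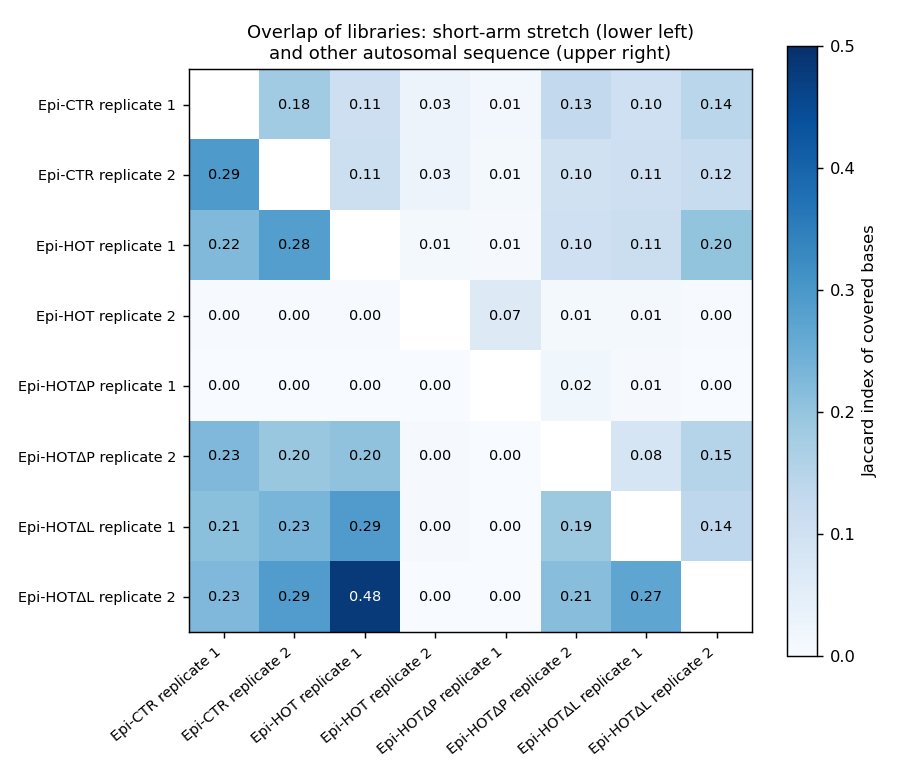
Jaccard index of covered bases for each pair of the 8 libraries (colour and printed value), on the short-arm stretch (lower left) and in other autosomal sequence (upper right). The darkest square is Epi-HOT replicate 1 with Epi-HOTΔL replicate 2 on the stretch, at 0.481; the rows of Epi-HOT replicate 2 and Epi-HOTΔP replicate 1 are near 0 there.

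Replicates of a line met more often on the short arm in both lines whose replicates both had many members. In Epi-CTR, 62.8% of the members of replicate 1 met an island of replicate 2 (36.3% elsewhere), and 56.2% the other way round (47.2% elsewhere). In Epi-HOTΔL the shares were 83.1% (39.3% elsewhere) and 62.3% (32.9% elsewhere). In Epi-HOT 3 of 193 members of replicate 1 met replicate 2, and in Epi-HOTΔP 0 of 300 members of replicate 2 could meet the empty replicate 1. The mean difference over 7 libraries was 27.4 percentage points, above 0 in 5 of 7. The exact sign-flip permutation p of 0.0625 (adjusted 0.125) is not read as a test, because the values are overlaps of the same replicate pairs in both directions and that of Epi-HOTΔP replicate 2 is fixed by its empty partner. It includes the 3 members of Epi-HOT replicate 2, all of which met replicate 1; without both sparse libraries the mean over the 4 libraries of Epi-CTR and Epi-HOTΔL was 27.2. The covered share of the partner library was 15.4% to 58.1% on the short arm in these lines and 2.65% to 6.90% elsewhere, and its part in the difference was not tested.

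Epi-HOT and Epi-HOTΔP, which keep the LSD1-interacting part of HOTAIR, were set against Epi-CTR and Epi-HOTΔL, which do not have it, to ask whether LSD1 islands on the short arm differ. The whole lists of the first 4 libraries held 1116 to 8079 islands and those of the second 4 held 14938 to 20592, with no overlap. On the short arm they had 0 to 300 and 408 to 616 members, also with no overlap. This split is therefore not particular to the short arm. The ratio of geometric means, with 1 island added to each count, was 0.0408 (two-sided exact permutation p = 0.0286, which is the minimum over 70 regroupings; adjusted 0.114 over 4 measures, which misses 0.05). It was 0.448 without Epi-HOT replicate 2 and Epi-HOTΔP replicate 1, 0.114 without the second of these alone, and 0.129 in lists cut to 1116 islands each. The lines were grouped with earlier results of these data known, and the regroupings treat libraries of the same line as separate units. The p-values of this grouping are therefore descriptions.

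The other 3 measures overlapped between these groups. For the short arm's share of autosomal islands, the mean where the part is kept minus the mean elsewhere was -1.52 percentage points (exact permutation p = 0.257, adjusted 0.333), and 0.106 without the 2 sparse libraries. For its covered share, 0 to 32.8% against 15.4% to 58.1%, this difference was -16.8 points (exact permutation p = 0.200, adjusted 0.333), -4.91 without the 2 sparse libraries and -6.99 without Epi-HOTΔL replicate 2. Elsewhere the covered shares of the 2 groups were 0.455% to 2.79% against 2.65% to 6.90%. For width, Epi-HOT replicate 1 and Epi-HOTΔP replicate 2 were set against the 4 libraries of Epi-CTR and Epi-HOTΔL. The ratio of geometric means of their median widths was 2.06 (exact permutation p = 0.333, adjusted 0.333). It was 1.29 without Epi-HOT replicate 1 and 3.30 without Epi-HOTΔP replicate 2. Elsewhere in the same lists the medians were 6.80 and 8.60 kb against 3.80 to 7.40 kb. Neither difference is therefore shown to be particular to the short arm. With 2 libraries per line, no test between single lines can go below 0.333, and the lines are compared by their regions instead.

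A region was counted as held by a line when both of its libraries had an island there. Epi-HOT held 3 regions on the short arm and Epi-HOTΔP 0, so only losses can show in comparisons with Epi-CTR. Of 567 short-arm regions of the Epi-HOT and Epi-CTR lists, 120 (21.2%) were held by Epi-CTR and empty in Epi-HOT, 3 (0.529%) were held by both and 0 were gained. Over all autosomes the shares are 15.1%, 0.382% and 0.145%. Without Epi-HOT replicate 2 the numbers on the short arm were 120, 102 and 40, and without Epi-HOT replicate 1 there were 310 losses. Without Epi-CTR replicate 1 or 2 there were 271 or 270 losses.

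The 120 regions were mostly narrow, with a median of 7.40 kb, and lay along the whole stretch, with 28 in the first 5 Mb, 24 from 5 to 10 Mb, 35 from 10 to 15 Mb and 33 beyond. Epi-HOTΔL held 45 of them (37.5%) in both libraries and 65 in a single one, and 10 (8.33%) had no island there. Over all 4475 autosomal losses these shares were 18.9% in both and 40.7% in neither. Epi-HOTΔP had an island in replicate 2 in 44 and none in 76 (63.3%, against 72.8% over all autosomal losses). The Epi-HOTΔL and Epi-HOTΔP lists cover more of the short arm than of other sequence, which moves with these shares. The strongest lay at 10720401 to 10733400 (FDRs in Epi-CTR replicates 1 and 2: 4.14e-20 and 3.90e-17), 3154801 to 3156400 (2.98e-24 and 3.94e-12) and 11638401 to 11656600 (1.37e-23 and 5.68e-12). All 3 also had an island in both Epi-HOTΔL libraries, and the last 2 in Epi-HOTΔP replicate 2.

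Bases were compared as well as regions. Of the 1.62 Mb covered in both Epi-CTR libraries on the short arm, Epi-HOT replicate 1 covered 67.5% (29.4% of such bases elsewhere), Epi-HOTΔP replicate 2 43.8% (30.5%) and the Epi-HOTΔL replicates 51.3% and 92.6% (29.2% and 52.7%). Epi-HOT replicate 2 covered 0.653% and Epi-HOTΔP replicate 1 0, below the 4.46% and 1.40% they covered elsewhere. The shares of the 4 dense libraries have to be read against how much each covered in all. Divided by its own covered share, the value for Epi-HOT replicate 1 was 2.06 on the short arm and 10.5 elsewhere. For the other 3 it was 1.59 to 2.96 on the short arm and 7.64 to 11.2 elsewhere. This ratio cannot exceed the inverse of the covered share, a limit that on the short arm lay below each library's value elsewhere. The lower values on the short arm were therefore fixed by the cover.

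Epi-HOTΔP against Epi-CTR gave 162 losses among 808 short-arm regions (20.0%, against 15.3% over all autosomes), and 0 gained or kept (0.304% and 0.150% over all autosomes). Without Epi-HOTΔP replicate 1, 135 were kept and 57 gained, and the losses numbered 313 without Epi-HOTΔP replicate 2, 400 without Epi-CTR replicate 1 and 369 without Epi-CTR replicate 2. The losses were led by 5311201 to 5322200 (FDRs in Epi-CTR replicates 1 and 2: 2.10e-31 and 1.96e-20) and 17855801 to 17862600 (9.39e-28 and 2.74e-12), and both had an island in Epi-HOT replicate 1 and both Epi-HOTΔL libraries. The third was the region at 10720401 named above. Epi-HOTΔP against Epi-HOT had 0 gained, lost and kept among 322 regions (0.814%, 1.14% and 0.0807% over all autosomes). Without Epi-HOTΔP replicate 1, 132 were gained and 3 kept. Lost regions numbered 103 without Epi-HOT replicate 2 and 3 without Epi-HOTΔP replicate 2.

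Epi-HOTΔL and Epi-CTR both held many short-arm regions, so this comparison, unlike those above, could show both gains and losses. Losses had less room than elsewhere: they need a place without an island in Epi-HOTΔL replicate 2, which covered 58.1% of the short arm (6.90% elsewhere). That library covered 92.6% of the bases held by both Epi-CTR libraries (52.7% elsewhere). The shares below move with this cover, and its part in them was not tested. Epi-HOTΔL held 212 regions and Epi-CTR 194, and 136 of the 270 that either line held were held by both (50.4%, against 20.6% over all autosomes). Of all 532 regions, these 136 (25.6%) were kept, 35 (6.58%) gained by Epi-HOTΔL and 11 (2.07%) lost, where the shares over all autosomes are 5.00%, 4.17% and 6.14%. Kept regions were wide, with a median of 48.2 kb, beside 12 kb for gained and 6.60 kb for lost. Without Epi-HOTΔL replicate 1, 117 were gained and 22 lost, and without its replicate 2, 227 and 126. Losses numbered 64 without Epi-CTR replicate 1. Without Epi-CTR replicate 2 there were 46 losses and 63 gains.

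Of the 35 gained regions, 13 lay in the first 5 Mb and 16 from 5 to 10 Mb. They were led by 3773801 to 3787600 (FDRs of 1.79e-05 and 4.72e-11 in the Epi-HOTΔL replicates), 10160401 to 10190000 (1.90e-05 and 3.40e-07) and 5125001 to 5158600 (0.000314 and 1.45e-16). The second had an island in the Epi-HOTΔL libraries alone, while the others were also called in Epi-HOT replicate 1 and Epi-HOTΔP replicate 2. The 3 leading losses, at 10959001 to 10975800, 2931601 to 2938400 and 8488001 to 8490000, had islands in the Epi-CTR libraries and in no other.

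Against Epi-HOT, Epi-HOTΔL gained 86 of 423 short-arm regions (20.3%, against 11.6% over all autosomes), with 0 lost (0.263%) and 3 kept (0.196%). Without Epi-HOT replicate 2, 99 were kept and 21 lost. Gains numbered 220 without Epi-HOT replicate 1, 211 without Epi-HOTΔL replicate 1 and 259 without Epi-HOTΔL replicate 2. The median width of the gains was 27.0 kb, and the leading ones lay at 19634401 to 19674800 (FDRs of 9.61e-05 and 2.18e-14 in the Epi-HOTΔL replicates), 2714601 to 2733400 (0.000153 and 2.87e-14) and 11633801 to 11671600 (0.000166 and 8.86e-09). The first and the third also had an island in both libraries of Epi-CTR and in Epi-HOTΔP replicate 2, and the second in Epi-CTR replicate 2. The Epi-CTR and Epi-HOT libraries each serve in more than 1 of these comparisons, so their counts are not independent.

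The end of the stretch fell between islands in every library. In the 6 dense libraries the nearest member ended 13.2 to 278.2 kb before it, and the nearest island outside began 24.4 to 153.2 kb after it, so the islands show no break at the bound itself. In Epi-HOT replicate 2 the next island outside began at 33715601, and in Epi-HOTΔP replicate 1 at 28461201.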

How the data were processed

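The data are 8 island lists, each of 1 LSD1 immunoprecipitated library against the Input of its culture. SICER 1.1, Bowtie2 2.1.0 and hg19 are listed, without roles, in the submitters' processing notes. Per the labels, the authors called islands with a 200 bp window, a 1000 bp gap and an FDR of 0.05, then applied a filter that is not described. The only measurement is the FDR, a p-value adjusted by the authors' caller. Widths were all multiples of the window and gaps at least 1200 bp. Reads are not listed, so depth and its precision are unknown.

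Lists were read with starts and ends counted from 1. Line came from the labels, replicate from the sample titles. Members, lists of regions and the grouping of lines by the LSD1-interacting part were chosen with earlier results of these data known. Density spans run from the first to the last island of a chromosome in any list and include centromeres, which the short-arm stretch (19.4 Mb) lacks. Autosomes only were used (2785 Mb). Medians of width needed 5 members. Tests were exact permutations over libraries, adjusted by Benjamini-Hochberg within 2 families of 4 measures. P-values measure the spread between libraries; replicates of a line are not separate lines. Named regions are the 10 in most libraries, each library's best and widest member, all members of lists with at most 10, and the 3 best ranked per comparison and direction. Counting was tested on simulated lists with planted regions. Alternatives were FDR limits of 0.001 and 1e-05, lists of equal length, other references and overlap rules, a replicate block, and libraries left out. Software was scipy 1.17.1, matplotlib 3.10.9, pandas 2.3.3 and numpy 2.4.6 under Python 3.11.15. Input libraries have no list of their own and were not analysed.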

Additional observations from a re-analysis of the deposited data

How the results depend on the processing

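Of 353 values recomputed under an alternative, 277 kept their direction and their side of 0.05, or stayed close to the reported count or share. Another 71 counts or shares moved, 3 tests passed 0.05 and 2 values changed sign. Some of the 277 could not change. Taking islands that share at least 1 bp with the stretch adds none, since no island crossed its end. Leaving out a library that is not in a comparison leaves its region counts as they were. The 277 is therefore not read as a measure of stability. Without Epi-HOT replicate 2 and Epi-HOTΔP replicate 1 the short arm's share of autosomal islands differed by 0.106 percentage points between the groups of lines. In the same setting the log2 ratio of density was 2.25 against other autosomal sequence and 1.07 against chromosomes 17 and 22, and that of width 0.664 (exact sign-flip permutation, adjusted p = 0.0417 each). These 2 libraries were chosen because they were sparse on this chromosome, so those p-values are not read as tests; the width value itself is the same, since neither library entered it. Counted in covered bases, the mean log2 ratio to chromosomes 17 and 22 was -0.213 (exact sign-flip permutation, adjusted p = 0.938). This mean includes Epi-HOTΔP replicate 1, which covered 0 bases of the short arm and whose value is set by the 200 bp added to each sum.

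Counts of regions follow the number of islands entered. With an FDR of at most 0.001, Epi-HOT against Epi-CTR had 1 kept, Epi-HOTΔL against Epi-HOT 32 gained and 1 kept, Epi-HOTΔL against Epi-CTR 13 gained, 22 lost and 54 kept, and Epi-HOTΔP against Epi-CTR 99 lost. With an FDR of at most 1e-05, the same comparisons had 56 lost and 0 kept, 6 gained and 0 kept, 2 gained and 18 kept, and 70 lost. In lists of 1116 islands they had 17 lost and 0 kept, 8 gained and 0 kept, 7 gained and 17 kept, and 23 lost. Without both sparse libraries, Epi-HOT against Epi-CTR had 40 gained and 102 kept, Epi-HOTΔL against Epi-HOT 21 lost and 99 kept, Epi-HOTΔP against Epi-HOT 132 gained, 103 lost and 87 kept, and Epi-HOTΔP against Epi-CTR 57 gained and 135 kept. Regions in at least 2 libraries made up 50.9%, 53.1% and 49.7% under the 3 smaller lists and 81.7% in windows of 10 kb, and those in at least 6 libraries 7.96%, 4.12%, 8.59% and 8.65%.

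With each library left out in turn, gained, lost and kept counts ran from 0 to 40, 120 to 310 and 3 to 102 for Epi-HOT against Epi-CTR. They ran from 86 to 259, 0 to 21 and 3 to 99 for Epi-HOTΔL against Epi-HOT, from 0 to 132, 0 to 103 and 0 to 3 for Epi-HOTΔP against Epi-HOT, from 35 to 227, 11 to 126 and 136 to 182 for Epi-HOTΔL against Epi-CTR, and from 0 to 57, 162 to 400 and 0 to 135 for Epi-HOTΔP against Epi-CTR. Recurrence ran from 50.6% to 60.3% for at least 2 libraries and from 0.442% to 12.2% for at least 6. The ratio of member counts ran from 0.0171 to 0.114. The difference in covered share ran from -23.7 to -6.99 and the ratio of widths from 1.29 to 3.30. The replicate number was also entered as a block (replicate block). Exact permutation p-values were then 0.0556 for member count (ratio 0.0408) and 0.222 for the share of islands (-1.52). They were 0.278 for covered share (-16.8) and 0.444 for width (2.06). The value for member count is the smallest that 36 regroupings allow, and width had only 9. No p-value could pass the limit for a call, so the absence of changed calls says nothing about stability. Whether the replicate numbers pair the samples cannot be told: correlations of same-numbered deviations between lines ran from -0.792 to 0.869. In Epi-HOT and Epi-HOTΔP these deviations are nearly the profile of the dense replicate alone, with opposite signs, because the other replicate is empty or nearly so. Depth is unknown, so an absent island is not an absence of LSD1.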
